A study of Mus musculus with 12 samples.

Results

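The 10 genes of the cadherin junction and of epithelial-mesenchymal transition (EMT) described here were measured by RNA-Seq in mouse 4T1 mammary carcinoma cells. They were chosen by symbol, 10 of 35521 genes with an annotated transcript: *Cdh1*, *Cdh2*, *Ctnna1*, *Ctnnb1*, *Epcam*, *Vim*, *Snai1*, *Twist1*, *Foxc1* and *Zeb1*. The rule used no measured value, but earlier results of these data were known when the genes were chosen. The 4T1 line comes from BALB/c mice. Each of the 3 groups had 4 libraries. Tu-Gr1+CD11b+–primed 4T1 cells had shared a Transwell plate for 48 hours with Gr1+ cells taken from tumors, and Spl-Gr1+CD11b+–primed 4T1 cells with Gr1+ cells taken from the spleen, in both cases from mice bearing 4T1 tumors, sorted on magnetic columns at day 21 per the labels. The membrane had pores of 0.4 μm. Parental 4T1 cells were grown without Gr1+ cells, so they differ from both primed groups in the presence of any second cell type. All 12 libraries are of 1 cell line, lysed in the well, and the sources used here do not say that replicates came from separate cultures or mice. The p-values therefore measure the spread between these libraries, which may be technical.

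Adherens junctions hold epithelial cells together through E-cadherin, the product of *Cdh1*, whose cytoplasmic tail binds beta-catenin (*Ctnnb1*), which in turn binds alpha-catenin (*Ctnna1*) and through it actin. In an EMT, transcription factors such as SNAI1, TWIST1, ZEB1 and FOXC1 are known to lower E-cadherin and EpCAM and to favor vimentin (*Vim*) and N-cadherin (*Cdh2*). The comparisons below ask how these genes stood in 4T1 cells after priming by tumor or spleen Gr1+ cells, and whether the source of the Gr1+ cells made a difference.

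Estimated counts summed to between 24566183 and 31637755 per library. They were summed per gene and are given as CPM, the gene's count relative to a library size scaled by TMM, a method that sets the bulk of genes equal between libraries. TMM factors were between 0.88 and 0.951 in parental libraries and between 1.01 and 1.05 in primed ones, so parental and primed libraries differed in composition. Parental libraries 3 and 4 had the lowest factors (0.91 and 0.88). The cells held luminal keratin mRNA, with *Krt8* at a mean of 1491 CPM in parental cells. *Krt5*, a basal keratin, had 0 counts in every library. Of 12 leukocyte and monocyte markers, 6 had at most 3 counts in every library, among them *Tyrobp* at 0. The sum of the 12 lay between 15.9 and 17.7 CPM in Tu-primed, 12.9 and 15.3 in Spl-primed and 12.8 and 17.1 in parental libraries, most of it *Cd14* (means of 16.1, 12.9 and 14.1 CPM). Of 13 granulocyte markers, 9 had at most 3 counts in every library, and *Retnlg*, *Camp*, *Ngp*, *Elane* and *Mpo* were at 0. The 13 summed to between 153.6 and 188.2 CPM in Tu-primed, 134.2 and 152.2 in Spl-primed and 126.5 and 131.8 in parental libraries, and without *Mmp9* to at most 11.4, 6.78 and 6.50. What part of any result below such RNA had was not tested.

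Vimentin mRNA stood far above the others and N-cadherin mRNA was at or under the limit of detection. Per transcript length, as TPM (a share of all transcripts, scaled by length) over protein-coding transcripts and averaged over the 12 libraries, the order was *Vim* (1127), *Ctnnb1* (467), *Ctnna1* (149), *Epcam* (64.0), *Twist1* (28.5), *Cdh1* (20.6), *Snai1* (12.8), *Foxc1* (7.90) and *Zeb1* (0.112). The lowest *Vim* library (920) lay above the highest *Ctnnb1* library (562.5), and the first 4 genes of the order kept ranges apart from each other. *Epcam* (35.2 to 79.4) touched *Twist1* (22.1 to 35.4). *Twist1* and *Cdh1* (14.7 to 24.1) also overlapped over the 12 libraries, as did *Cdh1* and *Snai1* (7.15 to 17.2) and *Snai1* and *Foxc1* (3.81 to 11.02). *Cdh2* (ENSMUSG00000024304, chr18:16588877-16809246, minus strand) had 1 count in Spl-primed library 1 and 0 counts in the other 11 libraries. A reading of 0 leaves room for 3 counts, or 0.122 CPM in the smallest library. *Zeb1* had between 10 and 20 counts per library. *Cdh1*, *Epcam* and *Vim* mRNA were all present in each of the 12 libraries. In such bulk samples, fewer cells with an mRNA and less of it per cell cannot be told apart.

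**Figure D1:**
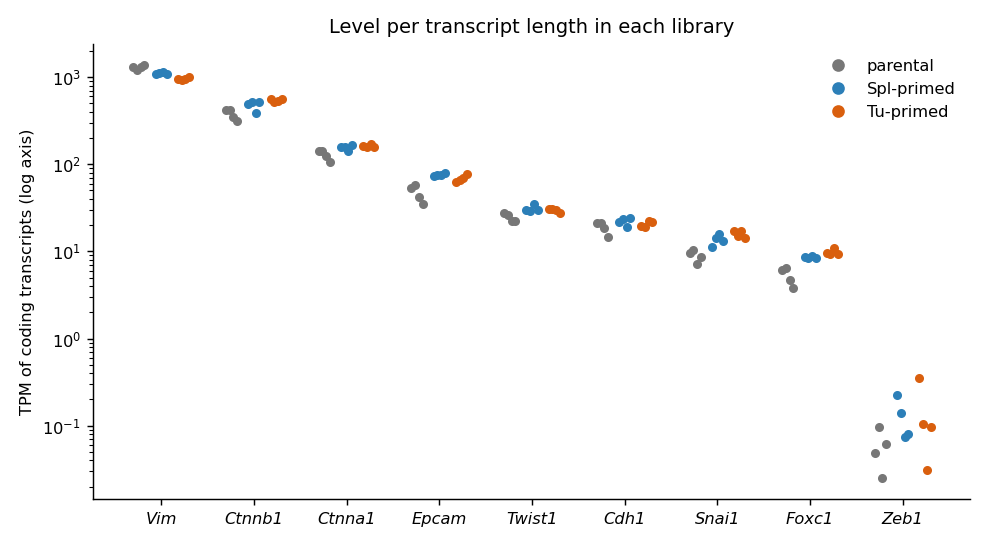
TPM summed over the protein-coding transcripts of each gene (vertical log axis) in each of the 12 libraries, 1 point per library, with parental in gray, Spl-primed in blue and Tu-primed in orange. Vim lies highest in every library and Zeb1 lies under 1 TPM in every library; Cdh2 is left out because 11 libraries had 0 counts.

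The 9 members other than *Cdh2* passed the filter on low counts, beside 12555 genes in all. All 12 libraries entered one edgeR model (quasi-likelihood test), with p-values adjusted by Benjamini-Hochberg over all 12555 genes and called under 0.05. Between Tu-Gr1+CD11b+–primed and Spl-Gr1+CD11b+–primed 4T1 cells, 0 of 9 members were called, against 7.63% of all genes tested (4.66% higher, 2.97% lower). At an unadjusted p under 0.05 there were 3 (*Vim*, *Epcam* and *Cdh1*, each with the lower mean in Tu-primed cells), and DESeq2 and limma-voom also called 0. Against parental cells, Tu-primed cells had 2 members higher (*Foxc1*, *Snai1*) and 2 lower (*Vim*, *Cdh1*), beside 31.2% and 28% of all genes. Spl-primed cells had 2 members higher (*Epcam*, *Foxc1*) and 1 lower (*Vim*), beside 25.7% and 22.5%. In either direction 59.2% and 48.2% of all genes were called. Both comparisons use the same 4 parental libraries. The median log2 fold change of the 9 members was −0.02 between the primed groups, 0.11 for Tu-primed and 0.00 for Spl-primed against parental cells, beside −0.014, 0.022 and 0.02 over all genes.

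**Figure D2:**
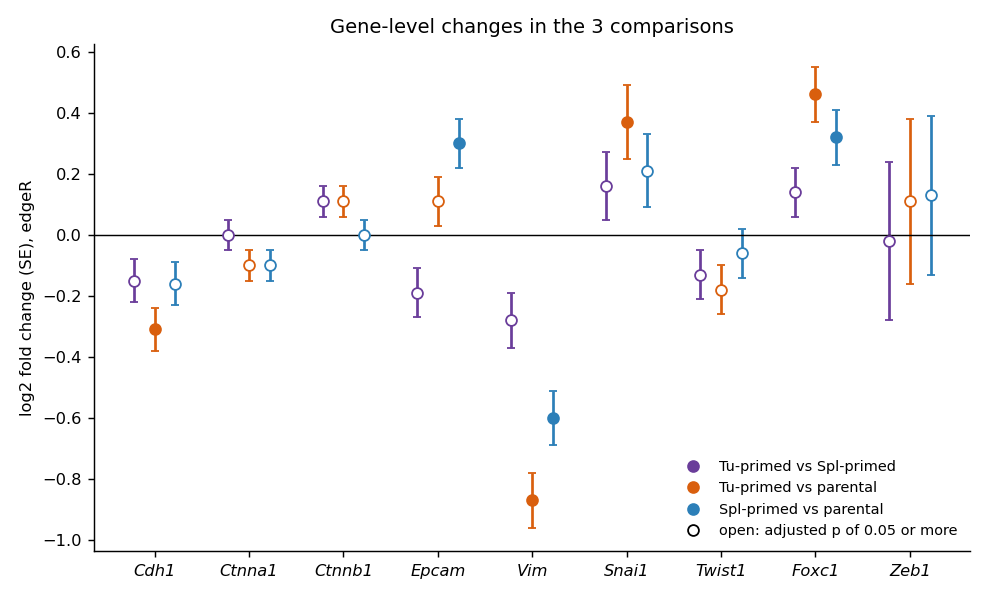
Log2 fold change of each member (vertical axis, with its SE as bars) from edgeR in the 3 comparisons: Tu-primed against Spl-primed (purple), Tu-primed against parental (orange) and Spl-primed against parental (blue), filled where the adjusted p was under 0.05. All 9 purple points are open, and Vim has the lowest value in each of the 2 comparisons with parental cells, at −0.87 and −0.60.

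SNAI1, TWIST1 and ZEB1 bind E-box sequences, and the letters CAGGTG and CACCTG (one motif on both strands) are the form known from *Cdh1* repression. The RefSeq promoter windows of GRCm38.p6 matched 6 of the 10 members, all but *Cdh1*, *Cdh2*, *Ctnna1* and *Zeb1*. The 250 bases before the RefSeq start of *Vim*, *Snai1*, *Foxc1* and *Epcam* are shown, the 4 matched genes called higher or lower in a primed group, with capitals marking E-boxes of this form and TATA boxes (TATAAA, plus strand). All 4 lie on the plus strand and are written 5′ to 3′, at chr2:13574061-13574310 for *Vim*, chr2:167537945-167538194 for *Snai1*, chr13:31806396-31806645 for *Foxc1* and chr17:87635729-87635978 for *Epcam*. The RefSeq start of *Vim* lies downstream of the GENCODE start given below, so its whole window lies within the GENCODE gene, and the *Foxc1* window runs a few bases past the GENCODE start.
Vim: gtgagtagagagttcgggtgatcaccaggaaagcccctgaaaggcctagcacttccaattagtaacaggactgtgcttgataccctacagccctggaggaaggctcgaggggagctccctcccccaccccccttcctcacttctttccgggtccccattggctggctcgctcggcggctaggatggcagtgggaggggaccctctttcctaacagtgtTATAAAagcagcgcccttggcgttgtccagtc
Snai1: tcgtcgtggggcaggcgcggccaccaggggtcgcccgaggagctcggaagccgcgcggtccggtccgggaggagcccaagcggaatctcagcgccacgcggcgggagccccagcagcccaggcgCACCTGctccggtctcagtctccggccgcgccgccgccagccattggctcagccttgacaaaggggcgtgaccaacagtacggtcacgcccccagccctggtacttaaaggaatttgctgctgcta
Foxc1: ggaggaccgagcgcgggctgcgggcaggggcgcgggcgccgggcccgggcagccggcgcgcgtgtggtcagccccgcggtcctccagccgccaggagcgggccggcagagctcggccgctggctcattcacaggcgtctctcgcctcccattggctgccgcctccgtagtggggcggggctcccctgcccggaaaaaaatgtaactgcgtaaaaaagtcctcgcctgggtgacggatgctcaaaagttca
Epcam: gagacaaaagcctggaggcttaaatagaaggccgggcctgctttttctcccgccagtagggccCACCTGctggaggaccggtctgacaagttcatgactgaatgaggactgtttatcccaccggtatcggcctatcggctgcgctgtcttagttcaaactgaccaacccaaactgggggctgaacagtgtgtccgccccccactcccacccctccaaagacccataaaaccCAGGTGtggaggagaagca
*Epcam* held 2 such E-boxes, beginning 187 and 19 bases before the start, and *Snai1* held 1, beginning 126 bases before it. *Vim* held a TATA box 32 bases before its start and no such E-box, and *Foxc1* held neither. Of 32851 windows of this length, 17.2% held the E-box and 7.59% the TATA box. The motif TTCNNNGAA, the general form bound by STAT factors, was in 7.02% of windows and in none of those of the 6 members matched. A match is a description of the letters in the window only.

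Among the junction genes, *Cdh1* (ENSMUSG00000000303, GRCm38 chr8:106603351-106670246, plus strand) fell. E-cadherin mRNA was at 59.9, 59.1, 66.6 and 67.5 CPM in Tu-primed libraries 1 to 4, at 70.8, 73.0, 63.4 and 73.6 in Spl-primed libraries and at 83.0, 80.2, 80.2 and 71.4 in parental libraries. All 4 Tu-primed libraries lay below all 4 parental libraries, as for 26.9% of all genes, while the Spl-primed libraries overlapped both. The means were 63.3 ± 4.38 (SD, n = 4), 70.2 ± 4.70 and 78.7 ± 5.02 CPM. *Cdh1* was 19.6% lower in Tu-primed than in parental cells (log2 fold change −0.31, SE 0.07, edgeR adjusted p = 0.00114). Spl-primed cells differed from parental cells by −0.16 (SE 0.07, edgeR adjusted p = 0.055), a call made without parental library 4 (edgeR adjusted p = 0.023) and by DESeq2 (adjusted p = 0.0203). The primed groups differed by −0.15 (edgeR adjusted p = 0.201, 95% interval −0.29 to −0.01).

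The catenins that link E-cadherin to actin moved little. *Ctnnb1* (ENSMUSG00000006932, chr9:120929216-120960507, plus strand) had 1497, 1450, 1434 and 1427 CPM in Tu-primed, 1358, 1364, 1278 and 1380 in Spl-primed and 1404, 1399, 1311 and 1253 in parental libraries. The Tu-primed libraries lay above all others, in a group order shared by 8.51% of genes against Spl-primed and 28.6% against parental cells. The differences were 0.11 in both comparisons (edgeR adjusted p = 0.229 and 0.0743). The second was called without Spl-primed library 3 (edgeR adjusted p = 0.0429) or parental library 2 (edgeR adjusted p = 0.0495), with upper-quartile scaling (edgeR adjusted p = 0.033) and with transcript length offsets (edgeR adjusted p = 0.0283). Spl-primed and parental cells were within −0.11 and 0.12 of each other on the log2 scale (95% interval). *Ctnna1* (ENSMUSG00000037815, chr18:35118859-35254779, plus strand) was between 404 and 421 CPM in Tu-primed, 395 and 424 in Spl-primed and 425 and 458 in parental libraries. Every library of both primed groups lay below the parental ones, as for 26.9% (Tu-primed) and 18.3% (Spl-primed) of all genes. The log2 differences from parental cells were −0.10 each (edgeR adjusted p = 0.0658 and 0.0844), and neither value was called by edgeR. DESeq2 called both (adjusted p = 0.00711 and 0.0055), as did edgeR with RLE scaling (adjusted p = 0.0371 and 0.0351). Without parental library 4 both were (edgeR adjusted p = 0.0299 and 0.0419), and the first also without Spl-primed library 3 (edgeR adjusted p = 0.0302). Between the primed groups the 95% interval was −0.10 to 0.09. *Ctnna1* contains *Lrrtm2* on the other strand, and *Ctnnb1* overlaps *Ulk4* on the other strand. How the quantification used strand is not given in the sources used here.

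*Epcam* (ENSMUSG00000045394, chr17:87635979-87651129, plus strand) encodes a homophilic adhesion protein of epithelia. It had 71.1, 73.7, 75.5 and 85.6 CPM in Tu-primed, 84.8, 84.1, 92.0 and 87.8 in Spl-primed and 74.9, 79.2, 66.4 and 62.2 in parental libraries. *Epcam* was highest in Spl-primed cells, whose 4 libraries lay above all parental ones, as for 21.3% of all genes. Tu-primed library 4 lay within the Spl-primed range and the other 3 lay below it. The rise against parental cells was 23.3% (log2 fold change 0.30, SE 0.08, edgeR adjusted p = 0.00573). Tu-primed cells differed from parental cells by 0.11 (edgeR adjusted p = 0.227) and from Spl-primed cells by −0.19 (edgeR adjusted p = 0.161, 95% interval −0.35 to −0.02). Parental libraries 3 and 4, of lowest TMM factor, were the 2 lowest in *Epcam*. Without both, a choice made after seeing the data, the Spl-primed value was 0.17 (edgeR adjusted p = 0.103) and the Tu-primed value −0.002.

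Vimentin, the intermediate filament protein used as a mesenchymal marker, showed the largest change among the 9 members. *Vim* (ENSMUSG00000026728, chr2:13573927-13582826, plus strand) had 1607, 1605, 1560 and 1733 CPM in Tu-primed, 1938, 1941, 2159 and 1851 in Spl-primed and 2709, 2537, 3138 and 3545 in parental libraries. The 3 groups did not overlap, with Tu-primed lowest, Spl-primed between and parental highest. For 8.51% of all genes every Tu-primed library lay below every Spl-primed one. Against parental libraries, every Tu-primed library lay below for 26.9% and every Spl-primed library for 18.3% of all genes. Means were 1626 ± 74.2 (SD, n = 4), 1972 ± 131 and 2982 ± 453 CPM. Against parental cells, *Vim* fell by 45.5% in Tu-primed cells (log2 fold change −0.87, SE 0.09, edgeR adjusted p = 4.0e-06) and fell by 33.9% in Spl-primed cells (−0.60, SE 0.09, edgeR adjusted p = 0.000164). Between the primed groups the value was −0.28 (SE 0.09), with an edgeR adjusted p of 0.0796. It passed the threshold in the fit of the 8 primed libraries alone (edgeR adjusted p = 0.0221), without parental library 2 (edgeR adjusted p = 0.0432) and without parental library 4 (edgeR adjusted p = 0.0292). Parental libraries 3 and 4 were the 2 highest in *Vim*. Without both, *Vim* was also called between the primed groups (−0.26, edgeR adjusted p = 0.0139). Whether the composition of these libraries had a part in the values was not tested.

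**Figure D3:**
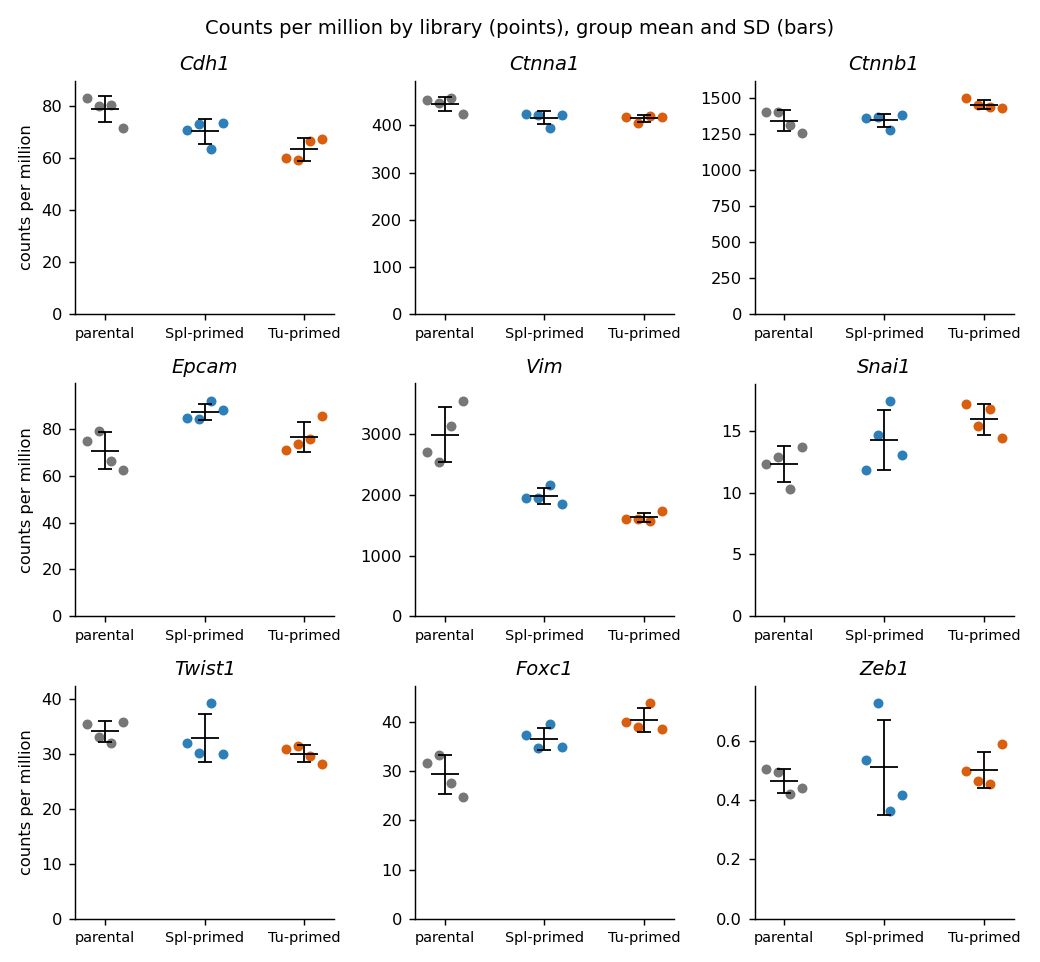
CPM (vertical axes from 0) of the 9 tested members in each library of the 3 groups, 1 point per library, with the group mean as a long tick and the SD as bars (n = 4). The Vim panel shows 3 separate groups from 1560 to 3545 CPM, and the Cdh1 panel shows Tu-primed libraries (59.1 to 67.5) under parental ones (71.4 to 83.0).

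Among the transcription factors, *Foxc1* (ENSMUSG00000050295, chr13:31806633-31812476, plus strand), a forkhead factor, was higher in both primed groups. Its values were 40.0, 38.9, 43.7 and 38.4 CPM in Tu-primed, 37.2, 34.7, 39.4 and 34.8 in Spl-primed and 31.7, 33.3, 27.5 and 24.7 in parental libraries. All 8 primed libraries lay above the parental ones. Every Tu-primed library did so for 28.6% and every Spl-primed library for 21.3% of all genes. The rise was 37.3% in Tu-primed cells (log2 fold change 0.46, SE 0.09, edgeR adjusted p = 0.000423) and 24.6% in Spl-primed cells (0.32, SE 0.09, edgeR adjusted p = 0.00756). The primed groups overlapped and differed by 0.14 (edgeR adjusted p = 0.353). Parental libraries 3 and 4 were the 2 lowest, and without both the Spl-primed value was 0.16 (edgeR adjusted p = 0.117).

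*Snai1* (ENSMUSG00000042821, chr2:167538195-167542814, plus strand) encodes Snail, a zinc finger repressor of *Cdh1*. It was at 17.1, 15.4, 16.7 and 14.4 CPM in Tu-primed, 11.8, 14.7, 17.4 and 13.1 in Spl-primed and 12.3, 12.9, 10.3 and 13.7 in parental libraries, from between 245 and 483 counts. Tu-primed libraries lay above all parental libraries, as for 28.6% of all genes, and Spl-primed libraries spread across both groups. *Snai1* was 29.7% higher in Tu-primed than in parental cells (log2 fold change 0.37, SE 0.12, edgeR adjusted p = 0.0131). Without parental libraries 3 and 4 the value was 0.35 (edgeR adjusted p = 0.0508). Spl-primed cells differed from parental cells by 0.21 (edgeR adjusted p = 0.152), and the primed groups differed by 0.16 (edgeR adjusted p = 0.437, 95% interval −0.08 to 0.41).

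*Twist1* (ENSMUSG00000035799, chr12:33957671-33959829, plus strand), a basic helix-loop-helix factor, was at 30.9, 31.4, 29.6 and 28.2 CPM in Tu-primed, 31.9, 30.2, 39.2 and 29.9 in Spl-primed and 35.5, 33.0, 31.9 and 35.8 in parental libraries. The Tu-primed libraries lay below the parental ones, as for 26.9% of all genes. The log2 difference of −0.18 was not called (edgeR adjusted p = 0.0693). DESeq2 (adjusted p = 0.0447), RLE scaling (edgeR adjusted p = 0.048) and the fit of the 8 libraries compared (edgeR adjusted p = 0.0212) did call it. Spl-primed library 3 stood above all other libraries. Without it, *Twist1* was called lower in Tu-primed (edgeR adjusted p = 0.0114) and in Spl-primed cells (−0.17, edgeR adjusted p = 0.0295) than in parental cells, while with it the Spl-primed value was −0.06 (edgeR adjusted p = 0.598). *Zeb1* (ENSMUSG00000024238, chr18:5591860-5775467, plus strand), a repressor of epithelial genes, had 14, 12, 13 and 17 counts in Tu-primed, 17, 20, 10 and 12 in Spl-primed and 15, 12, 10 and 11 in parental libraries. The groups overlapped, and at this depth the 95% interval of the log2 difference was wide, from −0.58 to 0.53 between the primed groups. A pseudogene overlaps *Zeb1*, so a share of these counts is uncertain.

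At the level of single transcripts, 26 of 58 annotated transcripts of the members were tested, among 38164 in all. Between the primed groups 0 of 26 were called, beside 0.495% of all transcripts higher and 0.0707% lower (3 at an unadjusted p under 0.05). By class, 0.0756% of retained-intron and 0.716% of protein-coding transcripts were higher. Against parental cells, 8 were higher and 6 lower in Tu-primed cells, beside 18% and 13.3% of all transcripts, and 5 were higher and 5 lower in Spl-primed cells, beside 14.9% and 11.4%. These values rest on Salmon's division of reads among overlapping transcripts, whose error is not in the files, and on TMM factors of the transcript table. *Cdh1-201* held 99.3% or more of *Cdh1* TPM in every group and fell by 0.40 against parental cells on that scale, whereas the gene fell by 0.31 on the gene scale.

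Coding transcripts of several members were lower in Tu-primed than in parental cells: *Vim-201* by −1.02 (SE 0.11, edgeR adjusted p = 0.000141), *Cdh1-201* by −0.40 (SE 0.07, edgeR adjusted p = 0.0014), *Ctnna1-201* by −0.21 (SE 0.04, edgeR adjusted p = 0.00225) and *Twist1-201* by −0.27 (edgeR adjusted p = 0.0359), as was the minor *Ctnnb1-201* by −0.80 (edgeR adjusted p = 0.034). *Ctnna1-201* lost its call at a minimum of 10 counts. *Twist1-201* lost its call with the replicate block, at a minimum of 10 counts and without any of the Tu-primed libraries, Spl-primed library 1 and parental libraries 1 and 4. *Ctnnb1-201* lost it with the block and without any of Tu-primed libraries 3 and 4 and parental libraries 2 and 4. The main coding transcripts *Ctnnb1-214* (0.12, edgeR adjusted p = 0.264), *Epcam-204* (0.02, edgeR adjusted p = 0.884) and *Snai1-201* (0.28, edgeR adjusted p = 0.133) were not called in the main fit. *Foxc1-201* was higher (0.37, edgeR adjusted p = 0.00841). Of transcripts annotated with a retained intron, 9 were tested, of which 6 were higher in Tu-primed and 4 in Spl-primed cells, with 1 lower (*Vim-203*) in each. With the replicate block, 3 stayed called higher in Tu-primed (*Ctnnb1-209*, *Vim-205*, *Ctnna1-205*) and 2 in Spl-primed cells (*Ctnnb1-209*, *Vim-205*). In the fit at a minimum of 10 counts in every library, *Vim-204* (0.34 TPM in parental library 3) was not among those called. Whether it was tested there is not given here. *Ctnnb1-206*, *Ctnnb1-209*, *Ctnna1-205* and *Ctnna1-211*, each at 0 TPM in a parental library, were left out of that fit and so not tested. The same setting gained calls for *Ctnnb1-214*, *Ctnnb1-215* and *Snai1-201* in Tu-primed cells and for *Epcam-204* and *Foxc1-201* in Spl-primed cells. The 14 transcripts called in Tu-primed cells became 9 when any 1 of Tu-primed libraries 1 to 4 was left out, and the 10 in Spl-primed cells became 6 without Spl-primed library 2 or parental library 1. *Cdh1-201*, *Vim-201*, *Vim-203*, *Vim-205* and *Foxc1-201* were called in Tu-primed cells in every setting run. Over all genes, 45.9% and 41.3% of retained-intron transcripts were higher and 1.95% and 1.69% lower, with median log2 fold changes of 1.78 and 1.69, while 9.34% and 6.55% of protein-coding transcripts were higher and 18.8% and 16.3% lower, with medians of −0.108 and −0.127. The members' retained-intron transcripts lay beside a shift of the whole class between primed and parental libraries, whose part in the gene values was not tested.

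**Figure D4:**
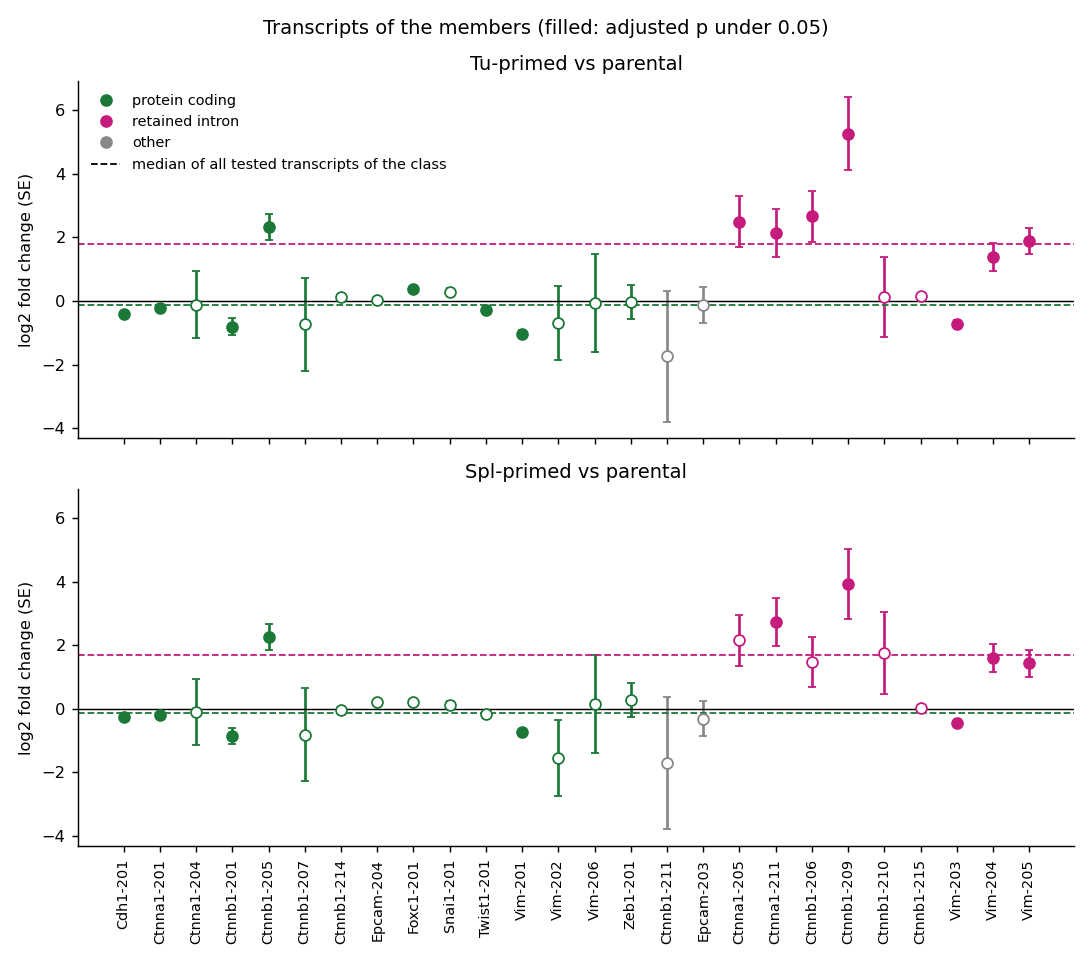
Log2 fold change with SE (vertical axes) of each tested transcript of the members against parental cells, in Tu-primed (upper) and Spl-primed cells (lower), colored by annotated class and filled where the adjusted p was under 0.05. Dashed lines give the median of all tested transcripts of a class, at 1.78 and 1.69 for retained-intron and near 0 for protein-coding transcripts.

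The small retained-intron transcripts were a minor part of their genes. In *Ctnna1*, 5 of them summed to 3.17, 4.42, 7.06 and 3.80 TPM in Tu-primed, 4.74, 7.399, 4.42 and 5.41 in Spl-primed and 0.581, 0.689, 0.501 and 0.903 in parental libraries. Both primed groups lay above parental cells in every library, at means of 2.72%, 3.35% and 0.537% of *Ctnna1* TPM. In *Vim*, *Vim-204* and *Vim-205* summed to between 4.45 and 5.66 TPM in Tu-primed, 3.01 and 5.05 in Spl-primed and 0.643 and 1.99 in parental libraries, or 0.231%, 0.174% and 0.0416% of the gene. In *Ctnnb1*, 4 of them summed to between 17.9 and 22.3 TPM in Tu-primed and 34.5 and 65.4 in Spl-primed libraries, and to 0.96, 25.4, 13.9 and 0 in parental libraries. Parental library 2 lay above all Tu-primed libraries. Among them, *Ctnnb1-210* was not called in Tu-primed cells (0.13, edgeR adjusted p = 0.96), and *Ctnnb1-209*, chosen after its values were seen, was at 2.28, 2.57, 2.68 and 1.34 TPM in Tu-primed, 0.691, 0.594, 0.770 and 1.32 in Spl-primed and 0, 0.162, 0 and 0 in parental libraries. *Ctnnb1-205*, a short coding model of 886 bases, rose from a mean of 1.03 TPM in parental cells to 7.34 (edgeR adjusted p = 0.00172) and 6.70 (edgeR adjusted p = 0.00288). At 0.368 TPM in parental library 4, it was not among those called at a minimum of 10 counts in every library. Whether it was tested in that fit is not given here.

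Both genes of highest level also carried a short retained-intron model of high TPM. *Vim-203*, 535 bases long (chr2:13579369-13582478), accounted for 56.6%, 56.0% and 51.6% of *Vim* TPM in Tu-primed, Spl-primed and parental cells. *Ctnnb1-215*, 1292 bases long, covers the last part of the gene (chr9:120959216-120960507) and accounted for 51.7%, 50.9% and 49.2% of *Ctnnb1* TPM. TPM divides by length, so such short models weigh more in TPM than in counts, and the TPM levels above leave them out. *Vim-203* was lower than in parental cells by −0.71 (edgeR adjusted p = 0.000515) and −0.46 (edgeR adjusted p = 0.00706), in the direction of *Vim-201*. For *Ctnnb1-215* the values were 0.15 (edgeR adjusted p = 0.0877) and 0.04 (edgeR adjusted p = 0.665). It was called in Tu-primed cells at a minimum of 10 counts in every library.

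The scale mattered for differences against parental cells. The log2(TPM + 1) scale used TPM summed over all transcripts of a gene. On it, the median of all genes stood at 0.401 for Tu-primed and 0.338 for Spl-primed against parental cells. TPM has no step that sets the bulk of genes equal, and it weighs short transcripts more. What part either had in these medians was not tested. *Cdh1*, *Ctnna1* and *Twist1* changed sign on that scale (to 0.14, 0.39 and 0.27 in Tu-primed cells). Relative to the median of all genes they were at −0.26, −0.01 and −0.13. *Vim* was at −0.29 on this scale in Tu-primed cells (limma adjusted p = 0.000845) and at −0.08 in Spl-primed cells, where it lost its call (limma adjusted p = 0.227). Relative to the median, *Vim* in Tu-primed cells was at −0.69, and *Foxc1* and *Snai1* were at 0.41 and 0.38. In Spl-primed cells, *Vim* was at −0.42 and *Epcam* at 0.34 relative to it.

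The genes around the members were read from lists written by hand. Values against parental cells are of Tu-primed cells unless Spl-primed cells are named. Each list's counts stand beside the shares of all genes, 4.66% higher and 2.97% lower between the primed groups and 31.2% higher and 28% lower in Tu-primed than in parental cells. Of 16 tested adherens junction genes, 2 were higher and 2 lower between the primed groups, and 4 were higher and 9 lower in Tu-primed than in parental cells, with medians of −0.07 and −0.16. *Lima1*, which encodes the actin-binding protein EPLIN that connects alpha-catenin to actin, rose by 0.44 (SE 0.06, edgeR adjusted p = 0.000273) over Spl-primed and by 0.52 over parental cells (edgeR adjusted p = 6.61e-06). *Pard3*, a polarity protein, fell by 0.46 against parental cells (edgeR adjusted p = 3.68e-05). *Jup*, or plakoglobin, the close relative of beta-catenin, fell by 0.36 (edgeR adjusted p = 0.00176), with a value of −0.25 between the primed groups that was not called (edgeR adjusted p = 0.0791) except without Tu-primed library 4 (edgeR adjusted p = 0.0196) or parental library 4 (edgeR adjusted p = 0.0469). *Ctnnd1*, or p120-catenin, which stabilizes cadherins at the membrane, was at −0.19 against parental cells (edgeR adjusted p = 0.0294), a call lost without any of Tu-primed libraries 1 and 2 and parental libraries 1, 3 and 4 (edgeR adjusted p up to 0.0868). *Tjp1*, the scaffold ZO-1, was at 0.24 (edgeR adjusted p = 0.0345), a call lost without any of Tu-primed libraries 1 and 3 and parental libraries 3 and 4 (edgeR adjusted p up to 0.105). *Ctnnal1* was at −0.18 between the primed groups (edgeR adjusted p = 0.0328), and the call was lost without any of the Tu-primed libraries or Spl-primed libraries 1 and 2 (edgeR adjusted p up to 0.108). *Afdn*, or afadin, was at −0.16 against parental cells (edgeR adjusted p = 0.138), and called without Spl-primed library 3 (edgeR adjusted p = 0.00458). P-cadherin, from *Cdh3*, had at most 7 counts in a library. *Pard3* (−0.47) and *Ctnnd1* (−0.22) were also called lower in Spl-primed than in parental cells. *Lima1* (0.08), *Jup* (−0.11) and *Tjp1* (0.06) were not called there.

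Of 13 tested EMT transcription factors other than the members, 2 were higher and 3 lower in Tu-primed than in Spl-primed cells, and against parental cells 0 were higher and 3 lower (0 higher and 5 lower by DESeq2, and 1 higher at an unadjusted p under 0.05). *Id1*, an inhibitor of helix-loop-helix factors, rose by 0.69 between the primed groups (SE 0.13, edgeR adjusted p = 0.00357), with means of 25.6, 15.8 and 22.7 CPM in Tu-primed, Spl-primed and parental cells. *Sox9*, a factor of progenitor cells, fell by 0.53 against parental cells (edgeR adjusted p = 4.16e-06). Its value of −0.24 between the primed groups (edgeR adjusted p = 0.0186) lost its call without any of Tu-primed libraries 1, 2 and 3 and Spl-primed libraries 1 and 2 (edgeR adjusted p up to 0.0794). *Zeb2*, unlike *Zeb1*, was well expressed, at 74.6 ± 5.88, 62.8 ± 10.5 and 61.7 ± 9.12 CPM (SD, n = 4), and was not called (0.25 and 0.27, edgeR adjusted p = 0.243 and 0.0662). Against parental cells it was called without Spl-primed library 3 (edgeR adjusted p = 0.0115) or parental library 2 (edgeR adjusted p = 0.0225). *Snai2* had at most 4 counts and *Twist2* at most 1 count in a library. *Sox9* (−0.30) and *Id1* (−0.52) were called lower in Spl-primed than in parental cells, and *Zeb2* (0.03) was not called there.

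Of 12 tested regulators of epithelial identity, 1 was higher and 0 lower between the primed groups (2 lower at an unadjusted p under 0.05 and 0 by DESeq2), and against parental cells 3 were higher and 3 lower. *Ehf*, an ETS factor of epithelia, rose by 1.34 over Spl-primed (SE 0.10, edgeR adjusted p = 5.93e-06) and by 1.14 over parental cells (edgeR adjusted p = 1.05e-06), with means of 61.2, 24.2 and 27.7 CPM. *Elf3*, of the same family, fell by 0.64 against parental cells (edgeR adjusted p = 5.11e-05), and *Gata3*, the luminal factor, fell by 0.39 (edgeR adjusted p = 1.72e-05). *Esrp1*, a regulator of epithelial splicing, rose by 0.24 (edgeR adjusted p = 0.0135). *Grhl2*, an activator of *Cdh1*, was at 0.06 (edgeR adjusted p = 0.453). *Ovol1* was at −0.49 (edgeR adjusted p = 0.0352), a call lost without any of Tu-primed libraries 2 and 3 and parental libraries 1 and 4 (edgeR adjusted p up to 0.103). *Elf3* (−0.42), *Gata3* (−0.34) and *Ovol1* (−0.55) were also called lower in Spl-primed than in parental cells. *Ehf* (−0.19) and *Esrp1* (0.12) were not called there.

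Tight junction genes were measured in the same cells. Of 15 tested, 0 were higher (1 at an unadjusted p under 0.05, 0 by DESeq2) and 3 lower between the primed groups, and 3 were higher and 6 lower in Tu-primed than in parental cells (medians −0.22 and −0.24). *Cldn3*, a claudin, fell by 1.06 against parental cells (SE 0.16, edgeR adjusted p = 6.22e-05), while *Cldn4* rose by 0.41 (edgeR adjusted p = 0.00159) and *F11r*, or JAM-A, by 0.25 (edgeR adjusted p = 0.000412). *Pard6b* fell by 0.30 between the primed groups (edgeR adjusted p = 0.00929). *Ocln*, or occludin, was at −0.27 between them (edgeR adjusted p = 0.0752) and was called without parental library 4 (edgeR adjusted p = 0.0354). *Cldn7* was at 1.91, 1.93 and 1.78 CPM in the 3 groups. *Cldn3* (−0.65), *Cldn4* (0.39), *F11r* (0.13) and *Pard6b* (0.36) were called in Spl-primed against parental cells. *Ocln* (0.16) and *Cldn7* (0.12) were not called there.

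Of 13 tested genes of the mesenchymal list, 3 were higher and 0 lower (1 at an unadjusted p under 0.05 and 1 by DESeq2, *S100a4*) between the primed groups and 7 were higher and 1 lower in Tu-primed than in parental cells (31.2% and 28% of all genes), with medians of 0.16 and 0.29. *Itgb3*, an integrin subunit, rose by 0.73 over Spl-primed (SE 0.11, edgeR adjusted p = 0.00104) and 1.43 over parental cells (edgeR adjusted p = 5.34e-07). *Nt5e*, the ectonucleotidase CD73, rose by 0.48 (edgeR adjusted p = 0.00119) and by 1.06 (edgeR adjusted p = 2.21e-07). *Fn1*, fibronectin, was at 0.29 (edgeR adjusted p = 0.0347), a call lost without any of Tu-primed libraries 1, 3 and 4 and parental libraries 1, 3 and 4 (edgeR adjusted p up to 0.0845). *S100a4* fell by 0.22 against parental cells (edgeR adjusted p = 0.0117). Its value between the primed groups was −0.22 (edgeR adjusted p = 0.0579), called without Tu-primed library 4 (edgeR adjusted p = 0.0435) or parental library 4 (edgeR adjusted p = 0.0452). *Itgb3* (0.70) and *Nt5e* (0.58) were also called higher in Spl-primed than in parental cells. *Fn1* (0.07) and *S100a4* (0.00) were not called there. Of the other 12 listed genes that were not tested, *Acta2* had at most 2 counts in a library and *Col3a1* had 0. Of 8 fibroblast markers 4 had at most 3 counts in every library, with *Lum* and *Col3a1* at 0. The 8 summed to between 77.5 and 100.8 CPM in Tu-primed, 42.81 and 67.87 in Spl-primed and 43.35 and 56.06 in parental libraries. *Fap* (means of 0.284, 0.081 and 0 CPM in that order, at most 14 counts) and *Dcn* (0.257, 0.0683 and 0.0509 CPM, at most 12 counts) were not tested. What part RNA of other cells had in these values was not tested. The 2 tested, *Pdgfra* and *Pi16*, were higher in Tu-primed cells, *Pdgfra* by 0.62 (edgeR adjusted p = 0.0053) and 0.83 (edgeR adjusted p = 5.96e-05). Of the 4 tested granulocyte markers, 2 were higher between the primed groups and 3 against parental cells, with *Ltf* at 4.16, 1.86 and 1.79 CPM.

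**Figure D5:**
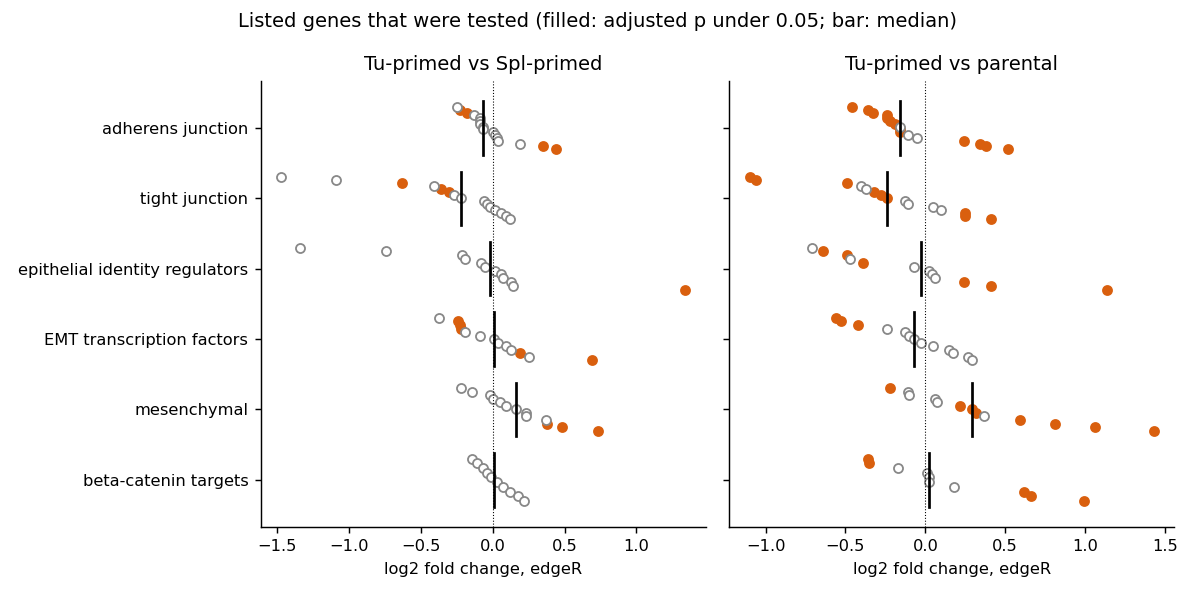
Log2 fold change from edgeR (horizontal axes) of every tested gene of 6 lists, Tu-primed against Spl-primed (left) and against parental cells (right), 1 point per gene, filled where the adjusted p was under 0.05, with a vertical bar at the list median. In the right panel the mesenchymal list has 7 genes called higher and 1 lower and the adherens junction list 4 higher and 9 lower; the members themselves are not drawn.

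Beta-catenin also acts as a coactivator of transcription with TCF/LEF factors. Of 10 tested genes of its known targets and partners, 0 were called between the primed groups by edgeR (1 higher and 1 lower at an unadjusted p under 0.05, and 1 lower by DESeq2), and 3 were higher and 2 lower in Tu-primed than in parental cells. *Notum*, a Wnt deacylase, rose by 0.99 against parental cells (SE 0.10, edgeR adjusted p = 4.16e-06). *Ccnd1*, cyclin D1, fell by 0.36 (edgeR adjusted p = 1.7e-05), and *Cd44* was at 0.02 (edgeR adjusted p = 0.794). *Axin2* had at most 6 counts in a library. *Notum* (0.81) and *Ccnd1* (−0.25) were also called in Spl-primed against parental cells, and *Cd44* (−0.01) was not.

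Keratins are the intermediate filament proteins of epithelia. Of 5 tested, 0 were called between the primed groups (3 lower at an unadjusted p under 0.05, and 1 by DESeq2) and 3 fell in Tu-primed cells against parental ones. *Krt7*, *Krt8* and *Krt18* were those that fell, while *Krt19* (0.00, edgeR adjusted p = 0.983) and *Krt14* (−0.19, edgeR adjusted p = 0.672) were not called. *Krt8* fell by 0.78 (SE 0.11, edgeR adjusted p = 4.49e-05), and was at −0.30 between the primed groups (edgeR adjusted p = 0.117, and 0.0274 without parental library 4). *Krt7* (−0.28), *Krt8* (−0.48) and *Krt18* (−0.38) were also called lower in Spl-primed than in parental cells. Over the 12 libraries, the 3 tested genes nearest to *Vim*, by the root mean square difference of centered log2 CPM, were *Rnf187* (0.031), *Map2k2* (0.037) and *Ybx1* (0.047), with group means of 72.8, 87.0 and 136 CPM for *Rnf187*. The 3 nearest to *Cdh1* were *Polr2a* (0.06), *Net1* (0.064) and *L3mbtl3* (0.065), and *Polr2a* had means of 792, 871 and 1007 CPM in Tu-primed, Spl-primed and parental cells.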

How the data were processed

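RNA-Seq libraries were prepared by the authors with a TruSeq Stranded kit from total RNA and, per the submitters' processing notes, passed through FastQC, Trimmomatic 0.39 and Salmon 1.4.0 with builds GRCm38 and mm10. The deposited files hold, per library, an estimated count and a TPM for each of 117081 transcripts. The authors' table of normalized values for the whole series was not used. The 116021 transcripts found in the GENCODE M21 annotation were summed per gene, and the rest held between 0.326% and 0.419% of counts. Estimated counts were rounded and tested with edgeR 4.0.16 (R 4.3.3: TMM, filterByExpr, quasi-likelihood test, all 12 libraries, group as the only term, Benjamini-Hochberg, threshold 0.05). Estimated counts of transcripts were tested likewise. TPM was used for levels between genes and, as log2(TPM + 1) and log2(TPM + 0.1), in limma 3.58.1 as an alternative. DESeq2 1.42.0 was another. CPM used edgeR's scaled library sizes.

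The tests were tried on simulated data drawn from these libraries. In them, 200 of 12450 genes, picked above a minimum mean count, were changed 2-fold in Tu-primed libraries only. Of the 200, edgeR found 196 in the comparison of the primed groups and 195 in that of Tu-primed with parental cells. It also called 7 and 9 unchanged genes. Whether edgeR would find differences as small as those of the members between the primed groups (at most 0.28 in size) was not tested. Of 198 changed transcripts among 35214, it found 86 and 84. A planned test of transcript usage recovered 1 of 172 changed transcripts there and was not used. No replicate pair agreed within sampling noise, with a chi-square of 3.5 to 64.6 for each degree of freedom. The highest value was that of parental libraries 2 and 4.

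The members and lists were chosen with earlier results of these data known. Named genes were all members, a set of listed genes whatever their result (1 is not reported here), the gene of smallest p in each direction of each list in the Tu-primed comparisons, and the 3 genes nearest to *Cdh1* and to *Vim*. *Cd14*, *Mmp9*, the keratins other than *Krt8*, *Tyrobp*, *Pi16*, *Fap*, *Dcn* and the other markers at 0 were named after their values were seen. Promoter windows were taken from RefSeq.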

Additional observations from a re-analysis of the deposited data

Results flagged for a closer look

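*Ctnna1* in Spl-primed library 3 stood apart from its group, at 395.0 CPM where the other 3 Spl-primed libraries were between 422.8 and 424.1, a gap of 0.955 of the group's range. It was the only one of 27 groups of 4 libraries (9 members in 3 groups) past Dixon's 95% value, and chance flags about 1 in 20 groups. Across genes, Spl-primed library 3 had a chi-square per degree of freedom of 31.8 to 39.6 against the other Spl-primed libraries. Pairs of those others had 3.5 to 7.63.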

How the results depend on the processing

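*Vim* and *Foxc1* were called in Tu-primed against parental cells under each of the 25 alternatives. Members called lower between the primed groups numbered 1 in the fit of the 8 libraries compared and 1 without the 2 libraries of lowest TMM factor (chosen after seeing the data), and 0 to 1 with a library left out. For Tu-primed against parental cells, members higher numbered 6 on log2(TPM + 1) and 6 on log2(TPM + 0.1), 1 without the low-TMM pair, and 2 to 3 with a library left out. Members lower numbered 4 with DESeq2, 4 with RLE scaling, 1 on both TPM scales, and 2 to 4 with a library left out. For Spl-primed against parental cells, members higher numbered 6 on both TPM scales and 0 without the low-TMM pair. Members lower numbered 3 with DESeq2 and RLE, 2 with no filter and without the low-TMM pair, 0 on both TPM scales, and 1 to 3 with a library left out. Member transcripts called numbered 9 and 6 (main 14 and 10) at a minimum of 10 counts and with the replicate block, and 9 to 12 and 6 to 11 with a library left out.

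On the TPM scales the values turned for *Cdh1* (0.14 and 0.14 in Tu-primed, 0.22 and 0.23 in Spl-primed, against parental cells), *Ctnna1* (0.39 and 0.40, 0.34 and 0.34) and *Twist1* (0.27 and 0.28, 0.33 and 0.34), where the median of all genes moved as well. Values near 0 also turned. *Ctnna1* between the primed groups was 0.00639 with DESeq2 and RLE, 0.0138 with no filter, 0.00151 at 10 counts, 0.0121 with 8 libraries, 0.0502 and 0.0505 on TPM, 0.017 without the low-TMM pair and −0.0101 to 0.00997 with a library left out. *Zeb1* between the primed groups was 0.0205 with limma-voom, 0.000585 with the replicate block, 0.86 with length offsets, 0.35 and 0.77 on TPM and −0.13 to 0.19 with a library left out, and in Spl-primed against parental cells −0.0809 to 0.24. *Epcam* in Tu-primed against parental cells was −0.00167 without the low-TMM pair. *Ctnnb1* in Spl-primed against parental cells was −0.0213 with DESeq2 and RLE, −0.0197 with no filter, −0.00288 with 8 libraries, −0.0343 over coding transcripts, −0.07 without the low-TMM pair and −0.0285 to 0.0251 with a library left out. With a library left out, values between the primed groups were −0.053 to 0.0889 for *Afdn*, −0.0285 to 0.0575 for *Cldn4*, −0.18 to 0.0656 for *Cldn7*, −0.0249 to 0.0595 for *Ctnnd1*, −0.0893 to 0.18 for *Ovol1* and −0.0287 to 0.0501 for *Pard3*, and against parental cells −0.0302 to 0.0578 for *Cd44* and −0.0623 to 0.23 for *Cldn7* in Tu-primed cells. The cause was not tested.

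Replicate numbers are shared by the groups, and whether they pair libraries is not settled. Deviations of the 12 same-numbered pairs correlated at −0.164 to 0.148, with 2 over 0.1. Between Tu-primed and parental libraries, all same-numbered pairs were at 0.0839 to 0.148, and the other pairs at −0.224 to 0.14. With the replicate block, 1 of 93 gene results changed its call (*Ctnnal1* between the primed groups, edgeR adjusted p = 0.0715). The transcript usage test was not run on the data. Depth limits *Zeb1*, *Cdh2* and the minor transcripts.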
